A study of Mus musculus with 8 samples.

Results

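Immediate early and early growth response genes are the genes that a cell transcribes within minutes of a stimulus, without new protein synthesis. The set described here holds 10 of them, Fos, Fosb, Jun, Junb, Egr1, Egr2, Egr3, Nr4a1, Ier2 and Dusp1, among the 27179 gene identifiers of the series, and all 10 passed the filter on low counts that left 13794 genes to test. They form a list of named genes that was selected on their levels in WT CD44+ NK1.1- replicate 1, which stood far above the other libraries for such genes, so that library is shown apart and its excess is a description. RNA-seq read counts per gene came from natural killer T (NKT) cells of the thymus of C57BL/6 mice, T cells whose receptor recognises lipids presented by CD1d. The 4 Ezh2-KO and 4 WT libraries fall into the same 3 subsets, told apart by staining for CD44 and NK1.1 on the cell surface, with 2 biological replicates of CD44+ NK1.1- cells per genotype and 1 library for each of the other 4 groups, Ezh2-KO and WT CD44- NK1.1- and Ezh2-KO and WT CD44+ NK1.1+ cells. Ezh2 encodes the enzyme that methylates histone H3 in the Polycomb complex PRC2. The labels name the knockout only by its gene. The sources used here do not give the deleted part, the cells it was deleted in, the age of the mice or any pooling of animals.

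Signals from the T cell receptor or from growth and stress receptors pass through the kinases ERK, JNK and p38 to factors already bound at these genes, such as SRF with its Elk partners and CREB. Fos, Fosb, Jun and Junb encode the basic leucine zipper proteins that pair to form the transcription factor AP-1. Egr1, Egr2 and Egr3 encode zinc finger factors induced by calcium and ERK signalling, and mice lacking Egr2 make few NKT cells, since Egr2 acts at the gene of the NKT factor PLZF. Nr4a1 encodes the orphan nuclear receptor Nur77, whose level follows the strength of the receptor signal in T cells, Ier2 encodes a nuclear protein of the early response, and Dusp1 encodes a phosphatase that switches ERK, JNK and p38 off again.

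The libraries held between 20308745 and 22995090 counts, and levels are given as CPM, the count divided by the scaled library total. A gene without reads could still lie anywhere below 3 counts, which is 0.129 CPM in the deepest library and 0.151 CPM in the library with the highest such limit. These limits cover counting error only. Ezh2 itself stood at 78.4 CPM in Ezh2-KO CD44- NK1.1- cells, 83.3 and 77.9 CPM in the Ezh2-KO CD44+ NK1.1- replicates and 40.4 CPM in Ezh2-KO CD44+ NK1.1+ cells, against 109, 113 and 136, and 57.2 CPM in WT cells of the same subsets, lower in each Ezh2-KO library than in WT of its subset. A count over the whole gene does not show the deleted part. All 12 NKT markers followed, among them Cd3e and Zbtb16, had reads in every library. Summed markers of B cells (at most 4.78 CPM), thymic epithelium (at most 5.79 CPM), myeloid cells (at most 17.8 CPM) and dendritic cells (at most 32.0 CPM) were low throughout. Stromal and endothelial markers summed to more, from 58.7 CPM to 168 CPM. Pecam1 alone made up 163 CPM of the 168 CPM, in Ezh2-KO CD44- NK1.1- cells. Erythroid markers summed to 21.7, 19.7, 0.540 and 59.5 CPM in the Ezh2-KO libraries in the order just given, and to 1.03 to 1.68 CPM in the WT libraries. In bulk samples, fewer cells that express a gene and less RNA of it per cell cannot be told apart.

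Between genes, levels were compared per kilobase of gene length (RPKM), over the 7 libraries other than WT CD44+ NK1.1- replicate 1. Ier2 was highest, with a median of 66.2 RPKM (54.4 to 95.6), followed by Junb at 58.6 (47.1 to 204) and Egr1 at 35.6 (31.3 to 53.8). Egr3 had 30.1 (18.0 to 38.9), Egr2 12.4 (7.16 to 16.0), Nr4a1 10.6 (3.84 to 16.9) and Dusp1 8.06 (4.98 to 36.2), which is near the median of 8.65 RPKM over all tested genes. Fos at 6.11 (0.859 to 18.1), Jun at 4.08 (1.35 to 11.4) and Fosb at 0.477 (0.119 to 1.70) were lowest. The ranges of neighbours in this order overlapped, except that Egr3 lay above Egr2 in all 7 libraries. How far a gene varied ran from 1.72-fold between the lowest and highest of the 7 libraries for Egr1 and 1.76-fold for Ier2 to 8.43-fold for Jun, 14.3-fold for Fosb and 21.0-fold for Fos.

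**Figure D1:**
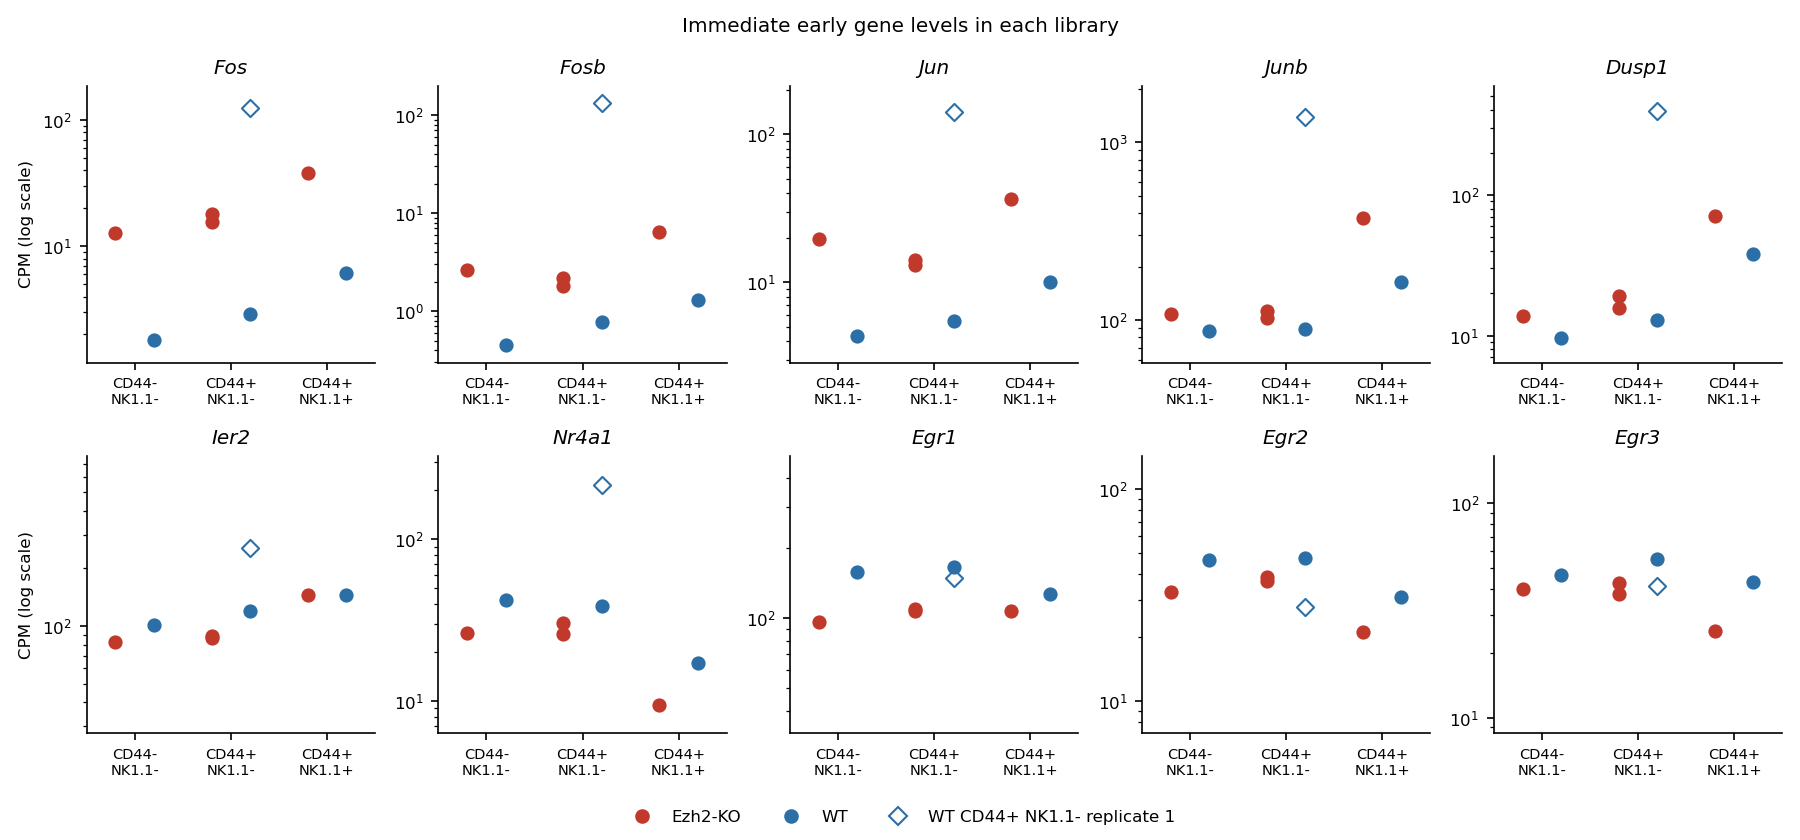
Level of each gene in each library, in CPM on a log axis, by subset along the x axis, with Ezh2-KO in red left of WT in blue and WT CD44+ NK1.1- replicate 1 as an open diamond. Each point is 1 library. All red points of Fos, Fosb and Jun lie above the filled blue circles, Egr1 lies lower in Ezh2-KO than in all 4 WT libraries, and the diamond stands above all other points for 7 of the 10 genes.

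The bases upstream of the start site are shown for some of the members that moved together in the comparisons described further on, Fos, Fosb, Junb and Dusp1 on one side and Nr4a1 and Egr2 on the other, since induction of these genes runs through factors bound close to the start. They are RefSeq promoter windows on GRCm38.p6, the assembly behind mm10, and windows of 7 of the 10 members were used here, those of all but Egr1, Egr3 and Ier2. The window of Jun, which moved with Fos and Fosb, held no match to the motifs searched and is not shown. Each sequence is the 250 bases before an annotated start on the strand of the gene, with matches in capitals. That start need not be the outermost one. The windows of Nr4a1 and Egr2 lie within the gene spans given further on, and that of Fosb partly does.
Fos, chr12:85473640-85473889, plus strand: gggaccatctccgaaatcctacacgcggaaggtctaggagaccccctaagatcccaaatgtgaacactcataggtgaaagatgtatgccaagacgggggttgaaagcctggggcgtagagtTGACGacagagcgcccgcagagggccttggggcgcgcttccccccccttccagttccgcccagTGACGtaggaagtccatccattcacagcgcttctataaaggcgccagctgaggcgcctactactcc
Fosb, chr7:19310046-19310295, minus strand: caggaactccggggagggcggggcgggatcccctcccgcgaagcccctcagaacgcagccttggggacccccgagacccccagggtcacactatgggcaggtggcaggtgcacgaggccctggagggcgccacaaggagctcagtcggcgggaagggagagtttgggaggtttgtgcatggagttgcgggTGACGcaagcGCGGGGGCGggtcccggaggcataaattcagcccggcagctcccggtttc
Junb, chr8:84978749-84978998, minus strand: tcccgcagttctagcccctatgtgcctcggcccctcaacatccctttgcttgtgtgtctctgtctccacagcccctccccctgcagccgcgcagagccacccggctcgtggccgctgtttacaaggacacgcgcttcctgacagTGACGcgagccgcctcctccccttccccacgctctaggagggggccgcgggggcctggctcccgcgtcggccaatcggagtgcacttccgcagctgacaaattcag
Dusp1, chr17:26508473-26508722, minus strand: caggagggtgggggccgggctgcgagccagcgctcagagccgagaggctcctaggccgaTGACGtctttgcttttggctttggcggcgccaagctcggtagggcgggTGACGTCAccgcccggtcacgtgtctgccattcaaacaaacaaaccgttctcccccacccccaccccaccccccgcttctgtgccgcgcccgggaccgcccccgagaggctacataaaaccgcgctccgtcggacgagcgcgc
Nr4a1, chr15:101266596-101266845, plus strand: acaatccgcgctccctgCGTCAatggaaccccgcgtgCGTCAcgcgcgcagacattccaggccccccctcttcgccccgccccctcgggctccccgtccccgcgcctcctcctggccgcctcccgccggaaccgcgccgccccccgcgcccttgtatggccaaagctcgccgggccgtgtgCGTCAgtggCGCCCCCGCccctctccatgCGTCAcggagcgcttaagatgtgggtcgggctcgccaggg
Egr2, chr10:67537619-67537868, plus strand, 1 of 5 annotated windows: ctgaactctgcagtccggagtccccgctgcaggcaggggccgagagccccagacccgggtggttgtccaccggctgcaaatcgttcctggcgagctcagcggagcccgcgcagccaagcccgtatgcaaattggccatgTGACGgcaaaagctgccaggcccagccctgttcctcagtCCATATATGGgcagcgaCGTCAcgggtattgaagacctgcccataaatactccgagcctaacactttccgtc
Both strands were searched for TGACG, the core of the CREB site, for its palindrome TGACGTCA, which contains it, for the Egr motif GCGNGGGCG and for the CArG box of SRF. TGACG, written CGTCA where it lies on the opposite strand, was in a window of 6 of these 7 members, the exception being Jun, against 19.8% of all genes with a window. A gene counts through any of its windows, so Egr2, with 5, had more room for a match than a gene with 1. Not all windows of Egr2 held TGACG. The motif TGACG lay 66 and 129 bases before the start of Fos, 60 before that of Fosb and 106 before that of Junb, and Nr4a1 had it 4 times. The palindrome was found in Dusp1 alone of these (1.77% of all genes), the Egr motif in Fosb and Nr4a1 (5.33%), and the CArG box in Egr2 alone (1.62%). The matches are letters in these windows, and elements further upstream lie outside them. Genes of both sides carried TGACG.

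The difference between the 2 WT replicates of CD44+ NK1.1- cells is what the list was known for, and it did not run through the whole list. Fosb stood at 132 CPM in WT replicate 1 and 0.774 CPM in replicate 2, a ratio of 170, the highest of all 13794 tested genes. The ratio was 43.2 for Fos (125 and 2.88 CPM), 30.8 for Dusp1 (396 and 12.9 CPM), 25.8 for Jun (141 and 5.46 CPM) and 15.5 for Junb (1383 and 89.1 CPM). Nr4a1 had 216 and 38.4 CPM, a ratio of 5.63, and Ier2 256 and 120 CPM, a ratio of 2.14. Those 7 genes were higher in WT replicate 1 than in any other library, by 1.76-fold for Ier2 and up to 20.5-fold for Fosb over the next highest. Of all tested genes, 11.2% were highest there. The list was chosen on these values, so the count of 7 is a description and no conclusion is drawn from it. The early growth response genes were not highest in WT replicate 1. Egr1 had 149 CPM in WT replicate 1 and 165 in replicate 2, Egr2 27.7 and 47.6, and Egr3 40.9 and 55.1, ratios of 0.899, 0.583 and 0.742. The Ezh2-KO replicates of the same subset lay within 1.22-fold of each other for all 10 genes.

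**Figure D2:**
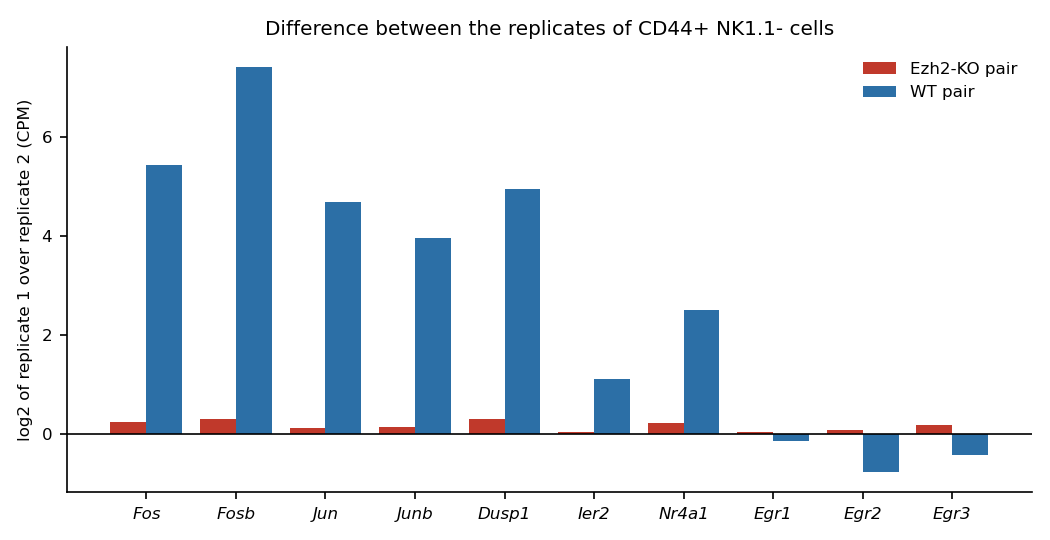
Replicate 1 over replicate 2 of CD44+ NK1.1- cells for each gene, as log2 of the ratio of CPM, with the Ezh2-KO pair in red left of the WT pair in blue. The WT bars reach 7.37 on this scale for Fosb and lie below 0 for Egr1, Egr2 and Egr3, while the Ezh2-KO bars stay near 0.

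The excess of WT replicate 1 extended to other genes of the early response. Of 32 further immediate early genes tested, 18 were over 2-fold higher in WT replicate 1 than in replicate 2 and 0 over 2-fold lower. Over 2-fold higher were also 5 of 13 AP-1 partner genes, 4 of 8 phosphatases of the MAP kinases and 6 of 17 response genes of the T cell receptor. In each of these lists 0 genes were over 2-fold lower. The lists share genes, such as Maff, so the counts are not separate. Of all tested genes, 5.40% were over 2-fold higher and 1.57% over 2-fold lower. These lists were chosen with earlier results of these data known, so the counts are a description. The largest ratios outside the list, in genes well expressed in replicate 1, were those of the factor gene Klf4 (30.0 and 0.516 CPM), the heat shock gene Hspa1b (126 and 3.78 CPM) and Tnfaip3, which encodes the inhibitor A20 of NF-kB (1220 and 48.3 CPM). Ppp1r15a, Bhlhe40, Maff, Sik1, Irs2, Ifng and Gadd45b followed, with ratios between 22.3 and 10.6. None of the 29 genes of the kinases and factors upstream differed over 2-fold in either direction. Other values moved with replicate 1. Klrb1c, which encodes NK1.1, measured 217 CPM there and 68.5 CPM in replicate 2, natural killer cell markers summed to 69.4 and 23.7 CPM, and markers of immature thymocytes summed to 93.9 and 43.9 CPM. Over 2-fold higher in replicate 1 were 5 of 6 natural killer cell, 5 of 7 myeloid and 4 of 7 immature thymocyte markers, with 0 over 2-fold lower. The Ezh2-KO replicates differed over 2-fold in 1, 6 and 4 of these markers, in this order. The share of counts in mitochondrial symbols, of which the counts held only 2, was 0.154% in WT replicate 1, against 0.0387% to 0.0745% in the other 7 libraries. The part of these values in the excess was not tested.

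Whether loss of Ezh2 changes these genes was asked over the 3 subsets with the 7 libraries other than WT replicate 1, in an edgeR model with subset and genotype as added effects. The AP-1 genes Fos, Fosb and Jun went the opposite way to the Egr genes. Fos, Fosb, Jun and Dusp1 rose in Ezh2-KO cells, Egr1, Egr2, Egr3, Nr4a1 and Ier2 fell, and Junb did not pass an adjusted p of 0.05. These 4 rises and 5 falls, 9 calls among 10, stand beside 20.3% of all tested genes called, 9.24% higher and 11.0% lower, and the median change of the 10 members was 0.15 on the log2 scale (-0.56 with all 8 libraries), against -0.002 over all tested genes. With WT replicate 1 in the fit, the values of Fosb (-2.02), Jun (-0.32), Junb (-1.03) and Dusp1 (-1.50) turned round, Fos had 0.15, and only Egr1 was still called (11.3% of all genes). The rises of Fos, Fosb, Jun and Dusp1 are therefore stated for Ezh2-KO against the WT libraries other than replicate 1. Egr2, Egr3, Nr4a1 and Ier2 kept their direction with all 8 libraries but were not called, so their falls are stated in the same way. Natural killer cell markers moved with genotype as well, with 3 of 6 called higher and 0 lower (median 1.07) and sums of 77.2 CPM in Ezh2-KO CD44- NK1.1- cells, 115 and 121 CPM in the Ezh2-KO CD44+ NK1.1- replicates and 1010 CPM in Ezh2-KO CD44+ NK1.1+ cells, against 24.9, 23.7 and 564 CPM in the WT libraries other than replicate 1. Of 4 erythroid markers tested, 0 were called, with a median change of 4.19, and their sums are given above. The part of both lists in the genotype changes was not tested.

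Fos (gene identifier 14281, chromosome 12, 85473890 to 85477274) encodes the founding partner of AP-1. It measured 12.8 CPM in Ezh2-KO CD44- NK1.1- cells, 18.2 and 15.5 CPM in Ezh2-KO CD44+ NK1.1- replicates 1 and 2 and 37.8 CPM in Ezh2-KO CD44+ NK1.1+ cells, against 1.80 CPM in WT CD44- NK1.1- cells, 2.88 CPM in WT CD44+ NK1.1- replicate 2 and 6.17 CPM in WT CD44+ NK1.1+ cells. All 4 Ezh2-KO libraries lay above these 3 WT libraries and below the 125 CPM of WT replicate 1. The change was 2.64 on the log2 scale (SE 0.11, adjusted p = 1.89e-06). With WT replicate 1 in the fit it was 0.15 (adjusted p = 0.970) and no longer called.

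Fosb (gene identifier 14282, chromosome 7, 19302696 to 19310118), a close relative of Fos, was the rarest member. Its 2.61, 2.19, 1.80 and 6.44 CPM in Ezh2-KO CD44- NK1.1- cells, CD44+ NK1.1- replicates 1 and 2 and CD44+ NK1.1+ cells stood against 0.450, 0.774 and 1.30 CPM in the same 3 WT libraries, from 10 to 27 counts each in WT. The genotypes did not overlap outside WT replicate 1, and the change was 2.02 (SE 0.27, adjusted p = 0.000989). Jun (gene identifier 16476, chromosome 4, 95049036 to 95052222), the partner of the Fos proteins, had 19.5, 14.1, 13.0 and 36.4 CPM in these Ezh2-KO libraries, against 4.32, 5.46 and 9.98 CPM in the WT libraries. It rose by 1.75 (SE 0.15, adjusted p = 0.000274), again with no overlap. Of all tested genes, 5.19% lay higher and 5.02% lower without overlap in these 7 libraries. Fos, Fosb and Jun summed to 34.9, 34.4, 30.3 and 80.7 CPM in Ezh2-KO cells and 6.56, 9.12 and 17.5 CPM in WT cells.

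Dusp1 and Junb differed less. Dusp1 (gene identifier 19252, chromosome 17, 26505591 to 26508472) had 13.8, 19.0, 15.7 and 70.3 CPM in Ezh2-KO CD44- NK1.1- cells, CD44+ NK1.1- replicates 1 and 2 and CD44+ NK1.1+ cells, against 9.67, 12.9 and 38.2 CPM in WT. It was higher in Ezh2-KO within each subset, although the genotypes overlapped across subsets (0.62, SE 0.11, adjusted p = 0.00464). Junb (gene identifier 16477, chromosome 8, 84976909 to 84978748), which encodes an AP-1 protein with weaker activating power than Jun, had 108, 112, 102 and 375 CPM in Ezh2-KO, against 86.6, 89.1 and 164 CPM in WT. It too was higher in Ezh2-KO within each subset, at 0.57 (SE 0.22, adjusted p = 0.166), and 2 of the alternatives called it, limma-voom (adjusted p = 0.0326) and the mean of the subset effects (2.89e-29), within a range up to 0.697.

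Egr1 (gene identifier 13653, chromosome 18, 34861207 to 34864956) was the one member whose genotypes did not overlap in all 8 libraries. It measured 96.2, 109, 107 and 108 CPM in Ezh2-KO CD44- NK1.1- cells, CD44+ NK1.1- replicates 1 and 2 and CD44+ NK1.1+ cells, against 158, 149 and 165, and 127 CPM in WT cells. Of all tested genes, 2.78% lay lower in that way, and 3.96% higher, which 0 members did. Egr1 fell by 0.53 on the log2 scale (SE 0.08, adjusted p = 0.00340) without WT replicate 1 and by 0.51 (adjusted p = 0.00849) with it.

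Egr2 (gene identifier 13654, chromosome 10, 67534469 to 67542188) had 32.7, 38.6, 36.8 and 21.2 CPM in the Ezh2-KO libraries in this order, against 46.5, 47.6 and 31.2 CPM in WT without replicate 1. It was lower within each subset, with a change of -0.45 (SE 0.06, adjusted p = 0.00156). WT replicate 1 had 27.7 CPM of Egr2, and with that library in the fit the change was -0.26 (adjusted p = 0.408). Reads of Gm32255, a gene that overlaps Egr2, cannot be set apart, since no source used here gives the strand setting of the counting. Egr3 (gene identifier 13655, chromosome 14, 70077317 to 70082613) had 39.7, 42.6, 37.8 and 25.4 CPM in Ezh2-KO, against 46.5, 55.1 and 42.9 CPM in WT. Every Ezh2-KO library lay below these WT libraries, and the change was -0.47 (SE 0.09, adjusted p = 0.00879), or adjusted p = 0.0787 without WT replicate 2. WT replicate 1 had 40.9 CPM of Egr3, and with that library in the fit the change was -0.37 (adjusted p = 0.105).

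Nr4a1 (gene identifier 15370, chromosome 15, 101253902 to 101274795) had 26.2, 30.2, 26.1 and 9.50 CPM in Ezh2-KO, against 41.9, 38.4 and 17.2 CPM in WT, lower within each subset. The change was -0.62 (SE 0.09, adjusted p = 0.00169). With WT replicate 1 it was -1.51 (adjusted p = 0.242). Ier2 (gene identifier 15936, chromosome 8, 84661331 to 84662852) had 82.7, 89.1, 86.9 and 145 CPM in Ezh2-KO, against 101, 120 and 145 CPM in WT. Its fall of -0.26 (SE 0.08, adjusted p = 0.0407) ended without WT replicate 2 (adjusted p = 0.336), without Ezh2-KO CD44+ NK1.1- replicate 1 (0.120) or without replicate 2 (0.130). All 10 members lay on the side of their fitted change in each of the 3 subsets, Ier2 with a ratio of only 0.998 in CD44+ NK1.1+ cells. Of all tested genes, 21.6% were higher and 23.5% lower in this way.

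**Figure D3:**
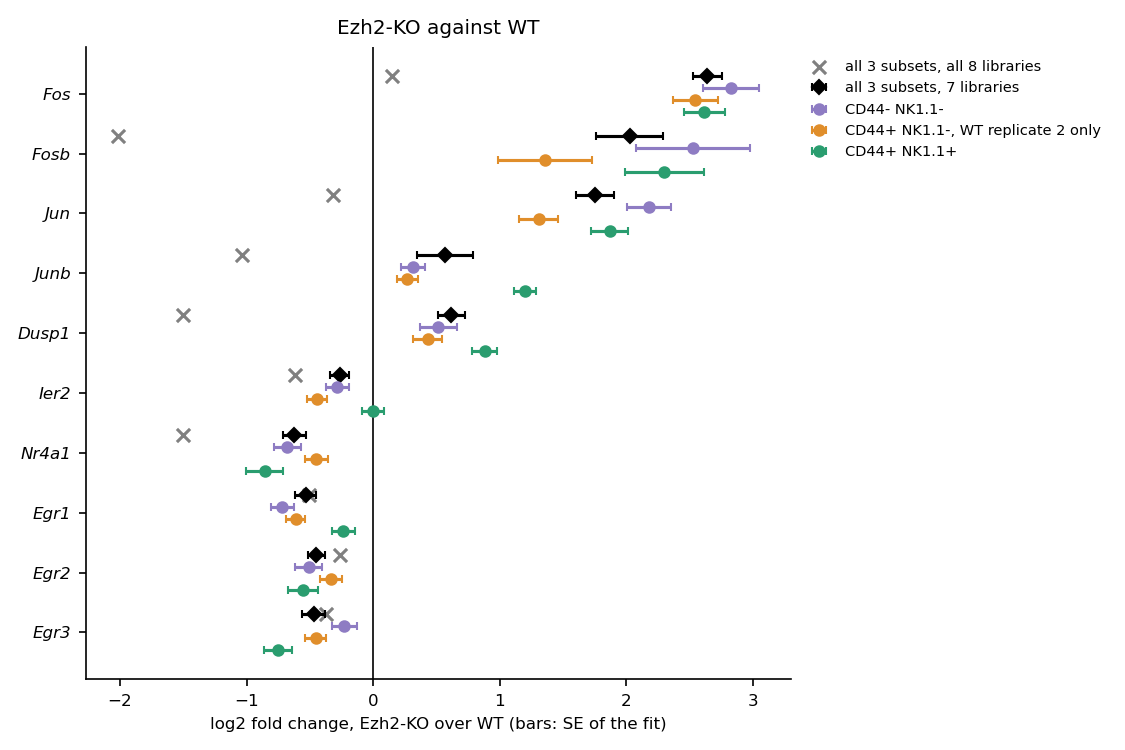
Log2 fold change of Ezh2-KO over WT for each gene, with bars for the SE of the fit: black diamonds over the 3 subsets from 7 libraries, circles within a subset, and grey crosses for the fit over all 8 libraries, drawn without SE. Fos, Fosb and Jun lie between 1.31 and 2.83 within the subsets, and the cross departs from the diamond for every AP-1 gene but stays near it for the Egr genes.

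Within single subsets the members went the same ways. Fos was higher by 2.83 (SE 0.22) in CD44- NK1.1-, 2.54 (SE 0.18) in CD44+ NK1.1- and 2.61 (SE 0.16) in CD44+ NK1.1+ cells, and a difference between subsets was not called (adjusted p = 0.884). For Junb the change was 0.32 (SE 0.09), 0.27 (SE 0.08) and 1.20 (SE 0.09) in this order, and the difference between subsets was called (adjusted p = 5.94e-14), with the widest change in NK1.1+ cells. Of the members, 9 were called in CD44- NK1.1-, 10 in CD44+ NK1.1- and 8 in CD44+ NK1.1+ cells, against 18.0%, 27.2% and 17.6% of all tested genes. These tests set 1 WT library against 1 or 2 Ezh2-KO libraries. Their spread comes from the Ezh2-KO CD44+ NK1.1- pair, which lay close together, and is shared across genes. The tests therefore assume that the single libraries vary as little as that pair. DESeq2, with a wider estimate, called 3 members in each subset (1.40%, 4.10% and 2.74% of all genes in this order), and the fit over all 8 libraries called 0, 1 and 0 (0.239%, 4.94% and 0.950% of all genes). The genotype effect was called different between subsets for 5 members, Jun, Junb, Egr1, Egr3 and Ier2, against 9.55% of all genes, and with all 8 libraries for 0 (0.00725%).

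Along the development of NKT cells, CD44- NK1.1- cells are commonly placed early and CD44+ NK1.1+ cells late. Between CD44+ NK1.1- and CD44- NK1.1- cells 0 of the 10 members were called in the edgeR model over 7 libraries, against 7.61% of all tested genes. Fos and Dusp1, 2 of the 10, had an unadjusted p under 0.05, as had 22.7% of all tested genes. DESeq2 (8.33% of all genes), limma-voom (7.61%) and the fit over all 8 libraries (2.07%) also called 0. Without the filter on low counts Fos was called (adjusted p = 0.0496, 6.22% of all genes), and the mean of effects in the 6-group model called Fos, Ier2 and Dusp1 (25.0% of all genes). Their changes lay between -0.25 for Jun and 0.47 for Fos (SE 0.13, adjusted p = 0.0611).

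CD44+ NK1.1+ cells differed from CD44+ NK1.1- cells in 9 members. Dusp1 (1.84, SE 0.12, adjusted p = 2.82e-06), Fosb (1.44, SE 0.28, adjusted p = 0.00186), Junb (1.42, SE 0.25, adjusted p = 0.0125), Jun (1.26, SE 0.17, adjusted p = 0.000311), Fos (1.16, SE 0.12, adjusted p = 2.87e-05) and Ier2 (0.53, SE 0.09, adjusted p = 0.00117) were higher. Nr4a1 (-1.37, SE 0.12, adjusted p = 8.79e-06), Egr2 (-0.73, SE 0.08, adjusted p = 4.19e-05) and Egr3 (-0.50, SE 0.11, adjusted p = 0.00555) were lower, and Egr1 had -0.18 (adjusted p = 0.160). Of all tested genes, 51.9% were called in this comparison, 26.8% higher and 25.1% lower.

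The direction was the same in both genotypes for these 9 members, as it was for 39.9% of all tested genes upwards and 38.0% downwards. In Ezh2-KO cells Dusp1 stood at 70.3 CPM in the NK1.1+ library and at 19.0 and 15.7 CPM in the NK1.1- pair, 4.06-fold higher than their mean. In WT cells it stood at 38.2 CPM and, in NK1.1- replicate 2, at 12.9 CPM, 2.97-fold higher. Nr4a1 fell to 9.50 CPM in Ezh2-KO NK1.1+ cells, against 30.2 and 26.1 CPM in Ezh2-KO NK1.1- cells, a ratio of 0.338, and its ratio in WT was 0.448. Junb was 3.50-fold higher in Ezh2-KO and 1.84-fold higher in WT. WT NK1.1- replicate 1 decides the direction of Fos, Fosb, Jun, Junb and Dusp1 in this comparison. With it in the fit the changes were -0.96 for Fos, -1.82 for Fosb, -0.72 for Jun, -0.04 for Junb and -0.15 for Dusp1, and no member was called (38.1% of all genes), Egr2 (-0.55, adjusted p = 0.0975), Egr3 (-0.40, adjusted p = 0.0814) and Nr4a1 (-2.27, adjusted p = 0.112) staying lower. Natural killer cell markers, whose sums are given above, moved with the subset too (6 of 6 called higher, median 4.10), and their part was not tested. The genotype and subset comparisons share the CD44+ NK1.1- libraries.

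**Figure D4:**
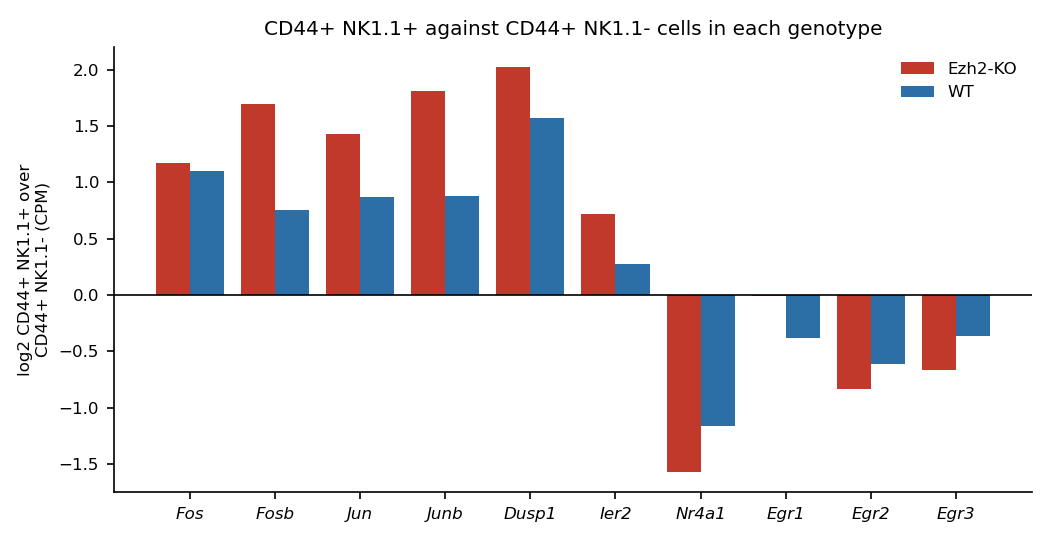
CD44+ NK1.1+ over CD44+ NK1.1- cells for each gene, as log2 of the ratio of CPM, in Ezh2-KO (red, against the mean of 2 replicates) and WT (blue, against replicate 2 alone). The bars of Fos, Fosb, Jun, Junb, Dusp1 and Ier2 point up in both genotypes, from 0.28 to 2.02, and those of Nr4a1, Egr2 and Egr3 point down, from -0.36 to -1.57.

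Across the 7 libraries the members formed opposed groups, given as a description over libraries that share genotype and subset. Pearson correlations of log2 CPM were 0.96 to 0.99 among Fos, Fosb and Jun and 0.87 to 0.98 among Egr2, Egr3 and Nr4a1, and between both groups they ran from -0.73 to -0.89. Junb followed Dusp1 (0.96), and Egr1 was nearest to Egr3 (0.66) among the members. Ier2 went with Dusp1 (0.73) and with Junb (0.67).

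The lists of related genes that follow are described from the 7 libraries, beside 20.3% of all tested genes called by genotype, 51.9% in NK1.1+ over NK1.1- cells and 7.61% in CD44+ over CD44- NK1.1- cells. Other immediate early genes were not uniformly on one side. Of 32 tested, 6 rose and 10 fell in Ezh2-KO over the 3 subsets, with a median of -0.09 on the log2 scale, against -0.002 over all tested genes. Ppp1r15a, which encodes the stress response partner GADD34 of a phosphatase, rose (0.84, SE 0.07, adjusted p = 9.85e-05), at 33.1, 25.9, 26.6 and 58.0 CPM in Ezh2-KO and 17.8, 15.9 and 30.2 CPM in WT without replicate 1. With WT replicate 1, at 355 CPM, its change was -0.99 and the median of the list -0.72. Ier5 (-0.41, adjusted p = 0.00100, and -0.74, adjusted p = 0.146, with WT replicate 1), the NF-kB gene Rel (-0.69, adjusted p = 0.00147, and -1.06, adjusted p = 0.0530) and the growth inhibitor gene Btg2 (-0.45, adjusted p = 0.00290) fell. In NK1.1+ over NK1.1- cells 15 of the 32 were higher and 6 lower (median 0.35, against 0.006 over all tested genes), and the smallest p-values were those of the kinase gene Sgk1 (2.58, adjusted p = 4.86e-08), Tnfaip3 (1.15), Ppp1r15a (1.06) and Klf6 (1.41). The median turned to -0.52 with WT replicate 1, which put Tnfaip3 at -0.74, Ppp1r15a at -0.74, Klf6 at 0.70 (none of the 3 called) and Sgk1 at 2.36 (adjusted p = 0.000357). In CD44+ over CD44- NK1.1- cells 6 were higher and 0 lower.

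Few partners of AP-1 were called by genotype. Of 13 tested, 0 rose and 1 fell in Ezh2-KO (median -0.17), or 7.69%, against 9.24% of all tested genes higher and 11.0% lower. That one was Fosl2, which encodes the Fos relative Fra-2. It had 6.10, 7.01, 6.75 and 15.9 CPM in Ezh2-KO CD44- NK1.1- cells, CD44+ NK1.1- replicates 1 and 2 and CD44+ NK1.1+ cells, against 15.8, 15.4 and 60.1 CPM in WT without replicate 1, and fell by 1.48 on the log2 scale (SE 0.14, adjusted p = 0.000361). Its value in WT replicate 1 was 115 CPM, and with that library the change was -2.46 (adjusted p = 0.130). Fosl2 thus moved in the direction opposite to Fos with genotype. In NK1.1+ cells 8 of the 13 were higher and 2 lower (median 0.22), among them Jund (0.84, adjusted p = 1.03e-05), Fosl2 (1.59, adjusted p = 6.33e-05), Jdp2 (1.28, adjusted p = 0.000435) and Atf3 (3.16, adjusted p = 0.000846). Atf3 had 1 count in each Ezh2-KO CD44+ NK1.1- replicate and 4 counts in WT CD44+ NK1.1- replicate 2, so its fitted fold is no measure of size. The median turned to -0.05 with WT replicate 1 in the fit, with Atf3 at -0.87, Fosl2 at 0.46 and Jund at 0.52, none of these called, and Jdp2 at 1.22 (adjusted p = 0.00174).

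Among 10 partners and reported targets of Egr2 or Egr3, 4 rose and 3 fell in Ezh2-KO (median 0.02). Nab2, a corepressor that binds Egr proteins, fell (-0.31, SE 0.05, adjusted p = 0.00172, and adjusted p = 0.0121 with WT replicate 1), at 156, 141, 142 and 116 CPM in Ezh2-KO and 199, 173 and 143 CPM in WT without replicate 1. The death ligand gene Fasl fell (-1.22, adjusted p = 0.000638, and -2.17, adjusted p = 0.184, with WT replicate 1), Id3, an inhibitor of E proteins, rose (0.37, adjusted p = 0.00346), and Dgkz, a kinase gene that dampens receptor signals, rose (0.22, adjusted p = 0.0195), neither of them called with all 8 libraries (adjusted p = 0.0912 for Id3 and 0.0694 for Dgkz). In NK1.1+ cells 4 were higher and 4 lower (median 0.14), with Fasl 5.24 higher (adjusted p = 2.34e-08) and Id3 2.20 lower on the log2 scale (-2.20, adjusted p = 5.18e-08). In CD44+ over CD44- NK1.1- cells 3 were higher and 1 lower.

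Phosphatases that act on MAP kinases as Dusp1 does showed 1 rise and 3 falls among 8 in Ezh2-KO (median -0.15). Dusp16 rose (0.82, adjusted p = 0.00210), and Dusp2 (-0.43, adjusted p = 0.000623), Dusp5 (-0.60, adjusted p = 0.00236) and Dusp6 (-0.34, adjusted p = 0.0201), a target of ERK signalling, fell, with Dusp1 rising beside them. Dusp5 had -1.47 (adjusted p = 0.298) with WT replicate 1, and the median was then -0.51. In NK1.1+ cells 4 were higher and 1 lower (median 0.50, or 0.17 with WT replicate 1), and in CD44+ over CD44- NK1.1- cells 2 higher and 0 lower. Upstream kinases and factors had 3 rises and 3 falls among 29 in Ezh2-KO (median -0.01), or 20.7% called, about the 20.3% of all tested genes. Those with the smallest p-values were the kinase gene Map2k1 (0.26, adjusted p = 0.00450) and Mapk8 (0.28, adjusted p = 0.0105) higher and Sos1 (-0.40, adjusted p = 0.00451) and Creb1 (-0.27, adjusted p = 0.00677, or 0.0721 with all 8 libraries) lower. In NK1.1+ cells 16 were higher and 4 lower (median 0.18), with the smallest p for Rasgrp1 (1.32, adjusted p = 1.70e-06), which activates Ras in T cells, and in CD44+ over CD44- NK1.1- cells 1 was higher and 0 lower.

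Response genes of the T cell receptor had 2 rises and 4 falls among 17 in Ezh2-KO (median -0.04). The chemokine genes Ccl3 (4.34, adjusted p = 0.00114) and Ccl4 (1.55, adjusted p = 0.00346) rose, and Il2ra (-0.60, adjusted p = 0.00690) and the activation marker gene Cd69 (-0.75, adjusted p = 0.00826, and -1.77, adjusted p = 0.232, with WT replicate 1) fell. Ccl3 had 0 or 1 counts in the WT CD44+ NK1.1- replicate 2 and WT CD44- NK1.1- libraries, so its fitted fold is no measure of size. Ccl4 had 2 counts in WT and 3 counts in Ezh2-KO CD44- NK1.1- cells, too few to show a change in that subset. In NK1.1+ cells 8 were higher and 3 lower (median 0.28, or 0.07 with WT replicate 1), and in CD44+ over CD44- NK1.1- cells 4 higher and 1 lower. Heat shock genes had 2 rises and 2 falls among 13 in Ezh2-KO (median -0.02), Bag3 (1.42, adjusted p = 0.000258) and Hspa1b (0.60, adjusted p = 0.00850) higher, Hsph1 (-0.23) and Dnajb1 (-0.21) lower. Hspa1b had 8.20, 5.92, 6.66 and 14.8 CPM in Ezh2-KO and 5.04, 3.78 and 11.3 CPM in WT without replicate 1. It turned to -1.47 with WT replicate 1 in the fit (adjusted p = 0.624), while Bag3 stayed higher (1.20, adjusted p = 0.00852) and Hsph1 (-0.06) and Dnajb1 (-0.40) were not called. In NK1.1+ cells 3 were higher and 6 lower (median -0.33, or -0.53 with WT replicate 1), and 0 were called in CD44+ over CD44- NK1.1- cells.

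Genes most like the mean profile of the members were sought as a description. Over all 8 libraries, where replicate 1 dominates, they were Ppp1r15a (r = 0.988), Atf4 (0.981), Nfkbiz (0.978), Ube2j2 (0.974), Pim3 (0.974), Zfand2a (0.965), Ccdc174 (0.951) and Miip (0.950). Over the 7 libraries without it they were other genes, Reps1 (0.991), Wls (0.987), Ppp2cb (0.983), Mapkap1 (0.981), Smap1, Rhot1 and Psme4 (0.980 each) and Srebf2 (0.978), and none of these was on a list followed here. The members themselves ran from 0.972 for Fosb to -0.907 for Egr2 in their correlation with that mean over the 7 libraries. The mean therefore stands for Fos, Fosb, Jun, Junb and Dusp1 and not for the Egr genes.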

How the data were processed

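RNA of sorted thymic NKT cells was sequenced from TruSeq RNA libraries on Illumina instruments, per the labels' protocols. The authors deposited whole-number read counts per gene, identified by Entrez gene number, for 8 libraries. Per the submitters' processing notes the tools were CASAVA, Subread 1.4.3-p1 and featureCounts with the build mm10. The sources used here give neither the annotation nor the strand setting. Of 27179 identifiers, 25275 matched a symbol in the RefSeq table. Total counts per library ranged from 20308745 to 22995090.

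The members and the gene lists were chosen with earlier results of these data known. The choice used WT CD44+ NK1.1- replicate 1, so tests leave that library out, and fits over all 8 libraries are an alternative. The 13794 genes that passed filterByExpr over the 6 groups were tested with edgeR 4.0.16 (R 4.3.3), by the quasi-likelihood test after TMM scaling with Benjamini-Hochberg adjustment over all of them, and a call is an adjusted p under 0.05. Genotype over the 3 subsets and both subset comparisons came from an additive model with 3 residual degrees of freedom. Single-subset effects came from a 6-group model with 1. Levels are CPM after TMM scaling of all 8 libraries, and RPKM uses the deposited gene lengths. DESeq2 1.42.0 and limma 3.58.1 (voom) were alternatives, with other size factors, no filter and each replicate left out. The tests were tried on simulated data with a fixed spread and no difference between subsets. That trial could not check the spread assumed for single libraries. Replicates are biological per the series' design text, and no pair was a repeated library (chi-square per degree of freedom 6.83 in Ezh2-KO and 48.6 in WT).

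Named besides the members were up to 4 genes with the smallest p per list and comparison, 10 genes with the largest ratio of the WT replicates and the 8 genes most like the mean of the members, the last 2 kinds with at least 4 log2 CPM.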

Additional observations from a re-analysis of the deposited data

Results flagged for a closer look

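The effect of Ezh2 loss differed between the 3 subsets for 5 of the 10 members, by the F test over the subset effects of the 6-group model with adjustment over all tested genes (9.55% called). For Jun (adjusted p = 0.0172) the log2 change of Ezh2-KO over WT was 2.18 in CD44- NK1.1-, 1.31 in CD44+ NK1.1- and 1.87 in CD44+ NK1.1+ cells. For Junb (adjusted p = 5.94e-14) it was 0.32, 0.27 and 1.20 in the same order. For Egr1 (adjusted p = 0.00667) it was -0.72, -0.61 and -0.24, with the NK1.1+ value not called. For Egr3 (adjusted p = 0.0258) it was -0.23, -0.46 and -0.75, with the CD44- value not called. For Ier2 (adjusted p = 0.0139) it was -0.28, -0.45 and -0.003, with the NK1.1+ value not called. The only replicates behind the spread of these tests were the Ezh2-KO CD44+ NK1.1- pair, and that spread was shared across genes. DESeq2 and limma-voom each called fewer of the 10 members, and the edgeR fit over all 8 libraries called 0 (0.00725% of all genes). No cause was tested.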

How the results depend on the processing

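The library that decides most values was WT CD44+ NK1.1- replicate 1. With all 8 libraries, members called numbered 1 for Ezh2-KO over WT in the 3 subsets, 0 in CD44- NK1.1-, 1 in CD44+ NK1.1- and 0 in CD44+ NK1.1+ cells, 0 for the difference between subsets and 0 for NK1.1+ over NK1.1- cells. All genes called numbered 1561, 33, 682, 131 and 1 in the first 5 of these and 285 for CD44+ over CD44- NK1.1- cells. Changes that turned round with all 8 were, over the 3 subsets, Fosb (-2.02), Jun (-0.32), Junb (-1.03) and Dusp1 (-1.50), and in CD44+ NK1.1- cells Fos (-1.92), Fosb (-5.05), Jun (-2.44), Junb (-2.78), Dusp1 (-3.56) and Egr2 (0.002). In CD44+ over CD44- NK1.1- cells they were Fosb (3.40), Jun (1.68), Junb (1.65) and Egr2 (-0.05), and in NK1.1+ over NK1.1- cells Fos (-0.96), Fosb (-1.82), Jun (-0.72), Junb (-0.04) and Dusp1 (-0.15). DESeq2 called 3 members in each single subset (185, 522 and 349 genes in developmental order) and 1 for the difference between subsets (133 genes), where limma-voom called 2. The mean of effects in the 6-group model called 5118 genes by genotype, and 3 members and 3451 genes in CD44+ over CD44- NK1.1- cells. In that comparison no filter on low counts called 1 member, Fos. Uncalled changes near 0 there also turned round: Nr4a1 with limma-voom (-0.01) and the mean of effects (-0.01), and Fosb (0.19) and Junb (0.02) with the mean of effects. Leaving out 1 other CD44+ NK1.1- replicate gave 1030 to 1750 genes by genotype (7 to 8 members) and 408 to 425 genes in CD44+ over CD44- NK1.1- cells, where Nr4a1 ranged from -0.07 to 0.14, Fosb from -0.35 to 0.11 and Junb from -0.25 to 0.05. The cause was not tested. With DESeq2 size factors all 70 values of single members kept direction and call. No paired analysis was possible because the labels give no replicate numbers that tie samples of different groups together. Counts of about 10 to 27 in WT limit Fosb.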
